A study of Homo sapiens with 27 samples.

Results

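The EGF family ligands and their ERBB receptors were examined in T47D cells, an established luminal breast cancer line, that expressed truncated forms of the transcription factor GATA3. The 9 genes were taken by name from the deposited gene counts, which list 26485 genes. They are the ligands EREG, AREG, BTC, TGFA and HBEGF and the receptors EGFR, ERBB2, ERBB3 and ERBB4. All 9 were among the 14789 genes that passed the filter on low counts.

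RNA-seq covered 4 lines with 3 libraries each, 12 in all. The control line was infected with the empty pHAGE lentivirus. The other lines carried a lentiviral, Ty1-tagged GATA3 truncation mutant named Splice del, C321fs or A333fs, and all lines also kept their own wild-type GATA3. Splice del loses the native sequence of the second zinc finger of GATA3, a DNA-binding domain, while C321fs and A333fs keep a part of it. Each line was 1 pool of cells selected with puromycin, so differences between pools and effects of the mutants cannot be told apart. The libraries of a line were labelled as replicates without saying whether they came from separate cultures. The p-values therefore measure only the spread between these libraries.

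EGF family ligands are made as membrane-anchored precursors and are released by proteases of the ADAM family. The soluble ligands bind ERBB receptors, which pair up, phosphorylate each other and signal through the RAS and MAP kinase cascade and through PI3 kinase and AKT. EREG, AREG, BTC, TGFA and HBEGF are all ligands of EGFR, and BTC, EREG and HBEGF also bind ERBB4. ERBB2 has no known ligand of its own and ERBB3 has little kinase activity, so both work with a partner. In the mammary gland, amphiregulin (AREG) is the EGFR ligand through which estrogen drives growth of the ducts.

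Libraries held 27872208 to 36788024 counted fragments. Levels are given as CPM, which are counts relative to 1e6 fragments of the library, scaled by the trimmed mean of M-values, and, where different genes are compared, as RPKM, which is CPM divided by the length of the exons in kilobases. Of the 10 luminal markers (KRT8, ESR1, GATA3 and others) none was at 0, and their summed level was 18200 to 21400 CPM in the control libraries, against 12100 to 13000 CPM for Splice del, 12800 to 13400 for C321fs and 13900 to 15000 for A333fs. This sum was thus lower in all mutant libraries. It was carried mostly by the keratins KRT8, KRT19 and KRT18, with means of 7520, 5560 and 2610 CPM in control, and the median log2 fold change over the 10 markers was -0.05, -0.25 and -0.20 in Splice del, C321fs and A333fs. Summed basal markers (mostly ACTA2) stood at 16.4 to 18 CPM in control, 15 to 17.6 in Splice del, 17.7 to 21.8 in C321fs and 23.1 to 25.8 in A333fs. Summed fibroblast markers (mostly COL1A1) ran from 53.6 to 65.2 CPM in control, 52.9 to 57.7 in Splice del, 41.3 to 50.2 in C321fs and 44.9 to 52.5 in A333fs. The immune list (mostly CD68) reached at most 7.13 CPM and the endothelial list 0.383 CPM. In such bulk samples, fewer cells of a kind and less RNA per cell cannot be told apart. The control libraries also differed from the mutant ones in how counts depended on the GC content of exons, with slopes of 0.153 to 0.233 on the log2 scale per 10 points of GC, against -0.171 to 0.059 in the mutant libraries. GATA3 itself, whose counts hold transcripts of the native gene and of the transgene together, averaged 1280 CPM in control and 1000, 1140 and 1020 CPM in Splice del, C321fs and A333fs.

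The comparison of each mutant line with control asks which ligands and receptors changed when a truncated GATA3 was added. A gene was called where edgeR's quasi-likelihood test gave an adjusted p (Benjamini-Hochberg, over all tested genes) below 0.01 and the fold change exceeded 1.5. EREG was called higher in all 3 mutant lines, AREG and BTC in C321fs, and ERBB4 in A333fs. EREG and BTC had 3 to 7 and 6 to 13 counts in the control libraries and passed the filter on low counts through mutant libraries. For both, a call as lower was therefore hardly possible. In Splice del cells 1 of the 9 members was called higher, where 6.21% of all tested genes were. In C321fs cells 3 of 9 were called higher, against 4.63% of all genes, and in A333fs cells 2 of 9, against 5.46%. No member was called lower in any mutant line by edgeR or by DESeq2, where 4.53%, 2.26% and 6.81% of all genes were called lower in Splice del, C321fs and A333fs. At an unadjusted p below 0.05 in edgeR's test, 1, 2 and 3 members were lower in these lines. The share of all genes at that threshold was not computed. Even at an adjusted p below 0.01 with no fold limit, 3314, 3067 and 3902 of the 14789 tested genes were lower.

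At an adjusted p below 0.01 with no limit on the fold change, 2, 5 and 5 of the 9 members passed in Splice del, C321fs and A333fs, where 41.1%, 36.8% and 47.4% of all genes passed. The libraries of the mutant line and of control did not overlap for 5, 7 and 7 of the 9 members, beside 62.9%, 54.1% and 65.5% of all genes. An F-test among the 4 lines gave an adjusted p below 0.01 for 7 members, where 56.2% of all genes passed; the exceptions were BTC with 0.022 and HBEGF with 0.98 (edgeR, Benjamini-Hochberg).

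Some of the cell type markers moved with the lines as well. Of the 10 luminal markers 1 was called higher and 3 lower in Splice del, 2 lower in C321fs, and 1 in each direction in A333fs. Those called lower were keratins, while TFF1, an estrogen-induced gene, was called higher in Splice del (0.65) and A333fs (1.02). EPCAM had 0.42, 0.37 and 0.37 in Splice del, C321fs and A333fs, short of the fold limit. DCN and LUM, proteoglycans of the fibroblast list, and ITGAM, an integrin of myeloid cells, were called higher in Splice del and A333fs. The means of DCN were 0.0678, 5.98, 0.0209 and 12.3 CPM in control, Splice del, C321fs and A333fs, those of LUM 0.158, 1.82, 0.373 and 4.71 CPM and those of ITGAM 0.0229, 0.657, 0.0772 and 1.43 CPM. DCN, LUM and ITGAM passed the filter on low counts only through mutant libraries, as did KRT14 and TP63 of the basal list. TP63 had 7 to 11 counts in the control libraries. The fibroblast collagen COL3A1 was called lower in all 3 lines, and COL1A1 in A333fs. Of the basal list, KRT14 and ACTA2 were called higher in A333fs and TP63 in C321fs. The part of these markers in the results on the ligands and receptors was not tested.

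**Figure D1:**
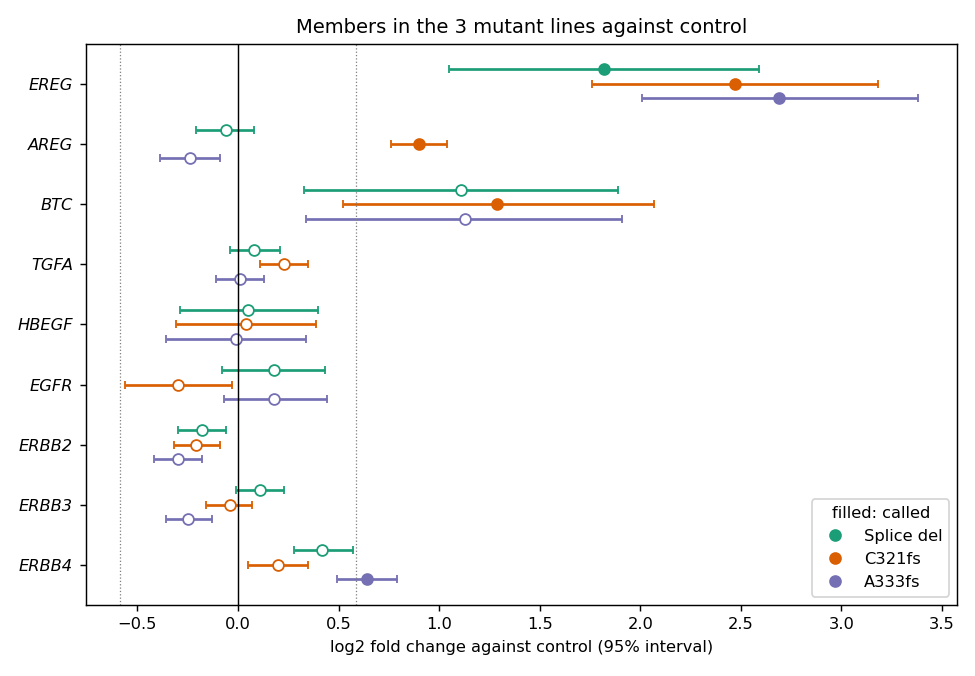
Log2 fold change of the 9 members in each mutant line against control (x axis, with 95% intervals from edgeR, 3 libraries a line). Filled points are called, open points are not, and the dotted lines mark a 1.5-fold change; EREG lies to the right in all 3 lines, from 1.82 in Splice del to 2.69 in A333fs, while AREG is apart from 0 to the right in C321fs alone, at 0.90.

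Among the 5 ligands that are members, AREG and TGFA made up nearly all of the transcripts. Per length, AREG stood at 15.6 RPKM in control, above 68.1% of the tested genes, and TGFA at 6.99 RPKM, above 51.3%. HBEGF had 0.86, BTC 0.23 and EREG 0.0383 RPKM, the last above 1.1% of tested genes. AREG thus held 65.7% ± 1.91 (SD, n = 3) of the summed RPKM of the 5 ligands in control. In C321fs the share of AREG was 74.6% ± 1.69 and that of TGFA 21.1% ± 1.38, and in A333fs they were 60.4% ± 0.342 and 32.2% ± 0.817. The summed level of the 5 ligands was 23.7 ± 0.454 RPKM in control and 23.9 ± 0.248, 38.9 ± 1.75 and 21.8 ± 0.589 RPKM in Splice del, C321fs and A333fs.

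EREG encodes epiregulin, a ligand of EGFR and ERBB4. It had 6, 7 and 3 counts in the control libraries, which is 0.204, 0.224 and 0.104 CPM. Splice del libraries had 27, 18 and 20 counts (0.697, 0.532 and 0.697 CPM), C321fs libraries 29, 31 and 33 (0.883, 1.08 and 1.07 CPM) and A333fs libraries 30, 32 and 52 (0.968, 1.02 and 1.53 CPM). Each mutant library lay above each control library, and the third A333fs library was the highest. The log2 fold change was 1.82 (SE 0.36, adjusted p = 0.000555), 2.47 (0.34, 3.59e-05) and 2.69 (0.32, 5.19e-06) in Splice del, C321fs and A333fs by edgeR's quasi-likelihood test. From the summed counts alone the ratios to control were 3.59 (exact 95% interval 2.05 to 6.64), 5.62 (3.28 to 10.2) and 6.61 (3.90 to 12.0), intervals that cover counting error only. Along the order control, Splice del, C321fs, A333fs, the step from Splice del to C321fs had an adjusted p of 0.107 and that from C321fs to A333fs of 0.48, while A333fs against Splice del gave a log2 difference of 0.87 (SE 0.24, adjusted p = 0.0158). Even its highest mean, 1.17 CPM in A333fs, was 0.253 RPKM and above only 8.2% of tested genes.

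AREG had 20.9, 19.7 and 19.0 CPM in the control libraries and 18.5, 19.0 and 19.7 CPM in Splice del. It had 38.1, 38.9 and 34.2 CPM in C321fs, from 1251, 1121 and 1057 counts, and 17.4, 16.8 and 16.3 CPM in A333fs. The C321fs libraries stood above all 9 others, and those of A333fs below all others. The log2 fold change in C321fs was 0.90 (SE 0.07, adjusted p = 2.29e-07), a 1.86-fold rise. In A333fs it was -0.24 (0.07, 0.0071), short of the fold limit, and for Splice del -0.06 (0.07, 0.474), with a 95% interval of -0.21 to 0.08 and a sign that turned to 0.03 and 0.13 with upper-quartile scaling and without scaling.

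The lines that express a mutant were also compared with each other, which asks whether the 3 mutant lines differ. The paper reports a slightly lower level of mutant protein for A333fs than for Splice del and C321fs. Effects of the truncation, of its protein level and of the pool cannot be told apart in these comparisons. AREG was the single member called between mutant lines. It was lower in Splice del than in C321fs by a log2 difference of -0.96 (SE 0.07, adjusted p = 5.49e-08) and lower in A333fs than in C321fs by -1.14 (0.07, 4.77e-09), each in edgeR's quasi-likelihood test. Of all genes 2.64% and 5.55% were called in these comparisons, in either direction, beside 1 of 9 members in each. Between A333fs and Splice del, where 3% of all genes were called, no member was called by edgeR or DESeq2. An unadjusted p below 0.05 was found for 5 members, and the share of all genes at that threshold was not computed. At an adjusted p below 0.01 with no fold limit, 1 member (AREG) passed between Splice del and C321fs, 4 (AREG, TGFA, EGFR and ERBB4) between A333fs and C321fs, and 1 (ERBB3) between A333fs and Splice del, where 6.32%, 15.7% and 11.9% of all genes did. These comparisons share libraries with one another and with those against control.

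BTC encodes betacellulin, which binds EGFR and ERBB4. It had 6, 8 and 13 counts in control (0.204, 0.257 and 0.451 CPM) and 28, 29 and 10 in Splice del (0.722, 0.857 and 0.348 CPM). C321fs libraries had 22, 18 and 29 counts (0.670, 0.624 and 0.940 CPM) and A333fs libraries 20, 21 and 23 (0.645, 0.670 and 0.675 CPM). All C321fs and A333fs libraries lay above control, but the third Splice del library fell within the control range. The log2 fold changes were of like size, 1.11 (SE 0.37, adjusted p = 0.0179), 1.29 (0.36, 0.00789) and 1.13 (0.37, 0.0156) in Splice del, C321fs and A333fs by edgeR, and only that of C321fs passed. Differences between the mutant lines were -0.18 (95% interval -0.82 to 0.46) for Splice del and -0.17 (-0.81 to 0.48) for A333fs against C321fs, so the single call does not set C321fs apart. The C321fs call was lost in 7 of the 12 fits that each left out 1 library, with log2 fold changes from 1.08 to 1.67. These were the fits without the first or second control library, the second or the third of C321fs, the first of Splice del, or the first or the third of A333fs. Without the third control library or the third Splice del library, BTC was called in the other lines as well.

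TGFA encodes transforming growth factor alpha. It had 33.0, 32.4 and 34.5 CPM in control and 35.9, 35.6 and 34.3 CPM in Splice del. Its levels were 38.9, 38.5 and 39.9 CPM for C321fs and 34.8, 34.2 and 31.7 CPM for A333fs. The C321fs libraries were above all others, and the remaining lines overlapped. In C321fs the log2 fold change was 0.23 (SE 0.06, adjusted p = 0.00326, edgeR), well short of the fold limit, and A333fs was lower than C321fs by -0.22 (0.06, 0.00899). HBEGF, the heparin-binding ligand, had 1.66 to 2.41 CPM over the control libraries and 1.88 to 2.36, 1.85 to 2.36 and 1.87 to 2.20 CPM over those of Splice del, C321fs and A333fs, and all lines overlapped. Its log2 fold changes were 0.05 (95% interval -0.29 to 0.40), 0.04 (-0.31 to 0.39) and -0.01 (-0.36 to 0.34), intervals that leave out a 1.5-fold change in either direction.

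**Figure D2:**
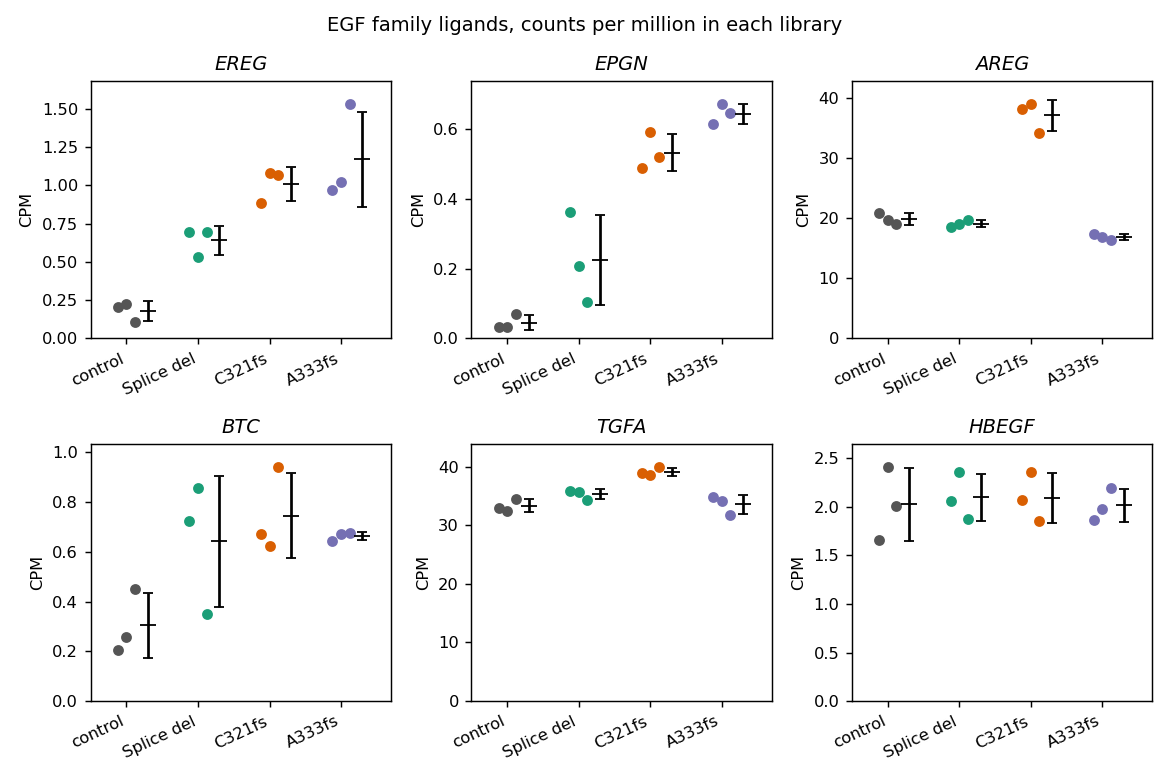
CPM in each of the 3 libraries of each line for the 5 ligands among the members and for EPGN (points, with the mean and SD as bars; each y axis starts at 0). EREG and EPGN are above control in every mutant library, AREG is at 34.2 to 38.9 CPM in C321fs against at most 20.9 CPM elsewhere, and HBEGF overlaps in all lines.

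The 3 ligand genes that were called lie together on chromosome 4, with EPGN, the gene of the EGFR ligand epigen. In hg38 coordinates of the deposited annotation, EPGN spans 74308470 to 74316803, EREG 74365143 to 74388760, AREG 74445098 to 74455009 and, on the opposite strand, BTC 74746238 to 74794672. The gaps between them are 48.3, 56.3 and 291 kb, and the whole span is 486 kb. EPGN is not one of the 9 members, but its counts resembled those of EREG. It had 1, 1 and 2 counts in control and 14, 7 and 3 in Splice del. The C321fs libraries held 16, 17 and 16 counts and those of A333fs 19, 21 and 22. EPGN thus passed the filter on low counts only through mutant libraries. The ratios to control from summed counts were 5.30 (exact 95% interval 1.82 to 21.0), 11.8 (4.34 to 45.2) and 14.4 (5.34 to 54.4). EPGN was called higher in all 3 lines (adjusted p = 0.00447, 7.29e-05 and 1.14e-05, edgeR), although the Splice del call was lost without the first or second control library or the first of Splice del, and, with the trend on GC content removed, at an adjusted p of 0.0113.

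AREG, which lies between EREG and BTC, kept to its own order of lines. All tested genes whose start lay within 1 Mb of the interval from EREG to BTC were compared as well. MTHFD2L, next to EPGN on the outer side, had log2 fold changes of 0.12, 0.17 and 0.22 in Splice del, C321fs and A333fs with adjusted p of 0.466, 0.289 and 0.155 (edgeR). Beyond BTC, RCHY1, G3BP2 and USO1 had log2 fold changes between 0.17 and 0.41 and were not called. THAP6 had 0.53, 0.50 and 0.68 and was called in A333fs (adjusted p = 2.51e-06, edgeR).

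**Figure D3:**
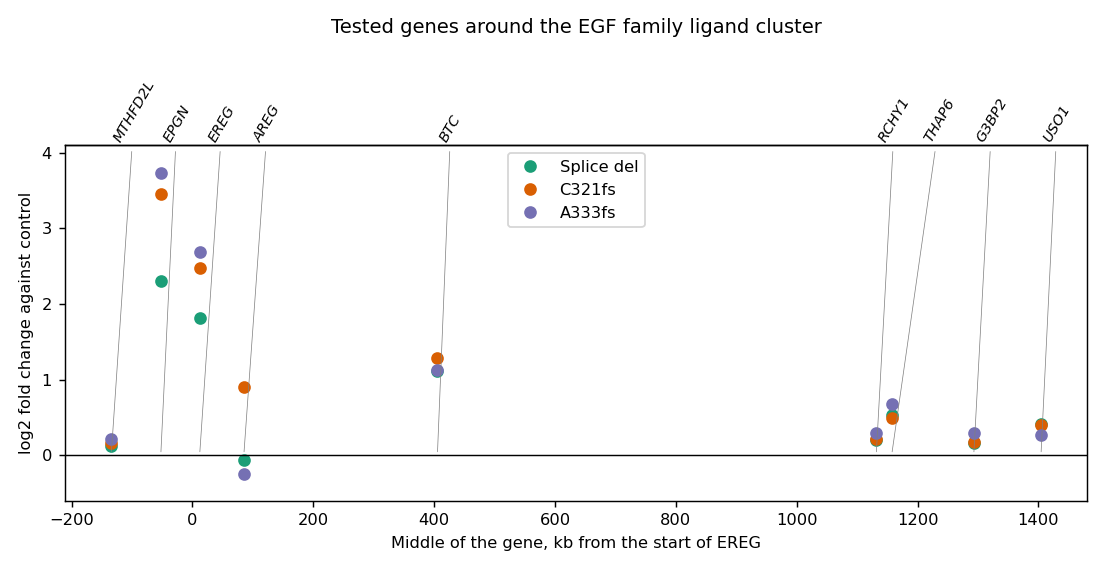
Log2 fold change against control (y axis) of the 9 tested genes on chromosome 4 around the EGF family ligand cluster, by the distance of the middle of each gene from the start of EREG in kb (x axis). EPGN and EREG are high in all 3 lines, AREG in C321fs alone, BTC at 1.11 to 1.29 in all 3 lines, and the genes outside are at or below 0.68.

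The 250 bases before the RefSeq start of these 4 genes are shown since the genes are neighbours, yet the order of the lines for AREG was unlike that for EPGN and EREG. The sequences are from RefSeq on GRCh38.p14, 5′ to 3′ on the strand of each gene. For BTC, AREG and, marginally, EREG the RefSeq start lies inside the gene span given above. Part of their windows therefore overlaps the gene as counted, most of all for BTC. Capitals mark matches, on either strand, to the GATA consensus in its forms AGATAA as well as AGATAG, and further TGATAA as well as TGATAG, and to AGAT, a shorter part of that consensus. The windows are chr4:74308220-74308469 (EPGN, plus strand), chr4:74364895-74365144 (EREG, plus strand), chr4:74444886-74445135 (AREG, plus strand) and chr4:74794524-74794773 (BTC, minus strand).
EPGN: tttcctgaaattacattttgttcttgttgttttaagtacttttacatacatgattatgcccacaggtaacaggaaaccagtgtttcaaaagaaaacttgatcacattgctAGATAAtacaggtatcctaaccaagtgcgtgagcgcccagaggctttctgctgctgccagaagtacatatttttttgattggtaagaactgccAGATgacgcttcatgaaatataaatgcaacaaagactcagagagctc
EREG: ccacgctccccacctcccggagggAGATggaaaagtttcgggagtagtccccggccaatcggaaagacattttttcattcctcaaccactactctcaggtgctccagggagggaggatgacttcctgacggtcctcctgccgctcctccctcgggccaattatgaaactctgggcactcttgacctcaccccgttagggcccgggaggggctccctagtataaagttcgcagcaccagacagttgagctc
AREG: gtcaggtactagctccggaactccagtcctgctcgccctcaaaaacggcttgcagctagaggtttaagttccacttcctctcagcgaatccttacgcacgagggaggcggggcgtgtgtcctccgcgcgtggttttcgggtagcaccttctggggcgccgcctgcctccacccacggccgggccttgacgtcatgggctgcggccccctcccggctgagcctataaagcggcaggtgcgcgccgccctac
BTC: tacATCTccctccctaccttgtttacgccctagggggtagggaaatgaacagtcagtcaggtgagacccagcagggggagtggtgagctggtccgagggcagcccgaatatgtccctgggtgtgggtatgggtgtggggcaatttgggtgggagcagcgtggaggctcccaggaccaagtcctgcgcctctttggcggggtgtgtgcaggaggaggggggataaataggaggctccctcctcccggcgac

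EPGN held the consensus form AGATAA 140 bases before its start and a further AGAT at 47 bases, with all distances taken from the RefSeq start. EREG held 1 AGAT, at 226 bases, and BTC 1 on the other strand, from 247 bases. AREG held none. Over all 35116 RefSeq promoter windows, from 250 bases before to 50 after the start, 25% held a consensus form and 69.9% held AGAT, which the forms beginning with these letters contain. Of the 9 members 8 matched a window by symbol, with 10 windows since TGFA and EGFR have 2 each, and ERBB3 was not among them. A consensus form was found in 1 of these 10 windows (the second of EGFR), and TGANTCA, the site of AP-1 factors, in the second of EGFR and in that of ERBB2, beside 7.7% of all windows. AGAT was found in the windows of EREG, BTC and ERBB2 and in the second of EGFR. Like that of AREG, the windows of TGFA, HBEGF and ERBB4 and the first of EGFR held none. These are matches of letters and were not tested for binding.

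Among the receptors, ERBB3 and ERBB2 were the most abundant. Per length ERBB3 had 52.0 RPKM in control, above 88.2% of tested genes, and ERBB2 36.3 RPKM, above 83.4%. ERBB4 had 2.19 and EGFR 1.73 RPKM. ERBB3 and ERBB2 held 56.4% ± 2.24 and 39.3% ± 2.35 (SD, n = 3) of the summed RPKM of the 4 receptors in control. The sum was 92.2 ± 1.39 RPKM in control and 93.0 ± 2.63, 85.8 ± 3.40 and 78.6 ± 2.42 RPKM in Splice del, C321fs and A333fs.

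ERBB4, the receptor that binds neuregulins as well as BTC, EREG and HBEGF, had 27.3, 24.6 and 26.6 CPM in control. It had 30.5, 28.2 and 31.7 CPM in C321fs, 35.0, 34.1 and 36.2 in Splice del and 37.3, 42.5 and 42.6 in A333fs. The 4 lines did not overlap, in the order control, C321fs, Splice del, A333fs. The log2 fold change against control was 0.20 (SE 0.07, adjusted p = 0.0238) in C321fs, 0.42 (adjusted p = 0.000115) in Splice del and 0.64 (adjusted p = 2.16e-06) in A333fs, of which the last passed the fold limit as well (edgeR). Between neighbours in this order, Splice del exceeded C321fs by 0.22 (SE 0.07, adjusted p = 0.0495) and A333fs exceeded Splice del by 0.22 (0.07, 0.0307). A333fs exceeded C321fs by 0.44 (0.07, 0.000221). The share of ERBB4 in the summed receptor RPKM was 2.38% ± 0.137 in control and 4.35% ± 0.295 in A333fs.

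ERBB2 had 190, 213 and 195 CPM in control and 179, 170 and 180 CPM in Splice del. It had 180, 163 and 175 CPM in C321fs and 162, 157 and 165 in A333fs. All mutant libraries were below control. The log2 fold changes were -0.18 (SE 0.06, adjusted p = 0.0137), -0.21 (0.06, 0.00652) and -0.30 (0.06, 0.000265) in Splice del, C321fs and A333fs by edgeR, none past the fold limit. Without scaling factors they were 0.01, -0.04 and -0.15, on a scale where the median of all genes was itself at 0.22, 0.19 and 0.16.

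ERBB3 had 338, 311 and 316 CPM in control and 342, 339 and 360 CPM in Splice del. It had 296, 310 and 332 CPM in C321fs and 266, 267 and 282 in A333fs. The A333fs libraries were the lowest and the Splice del libraries the highest, and C321fs overlapped control. Against control the log2 fold change was 0.11 (95% interval -0.01 to 0.23), -0.04 (-0.16 to 0.07) and -0.25 (-0.36 to -0.13) in Splice del, C321fs and A333fs, the last with an adjusted p of 0.00134 from edgeR. A333fs and Splice del differed by -0.35 (SE 0.06, adjusted p = 0.000381), short of the fold limit.

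EGFR had 11.4 CPM in each control library and 13, 12.9 and 12.6 in Splice del. It had 7.15, 10.1 and 10.6 CPM in C321fs and 11.7, 12.0 and 15.0 in A333fs. The first C321fs library was lower than the other two and the third A333fs library higher than its own pair. The log2 fold change was 0.18 (95% interval -0.08 to 0.43), -0.30 (-0.56 to -0.03) and 0.18 (-0.07 to 0.44) in Splice del, C321fs and A333fs, with adjusted p of 0.235, 0.0567 and 0.205 by edgeR. A333fs exceeded C321fs by 0.48 (SE 0.12, adjusted p = 0.00866), and without the third C321fs library this difference was 0.59 and was called. Counting ignored the strand, and 186 bases of EGFR exons overlap the antisense gene EGFR-AS1, so reads of both cannot be told apart there.

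**Figure D4:**
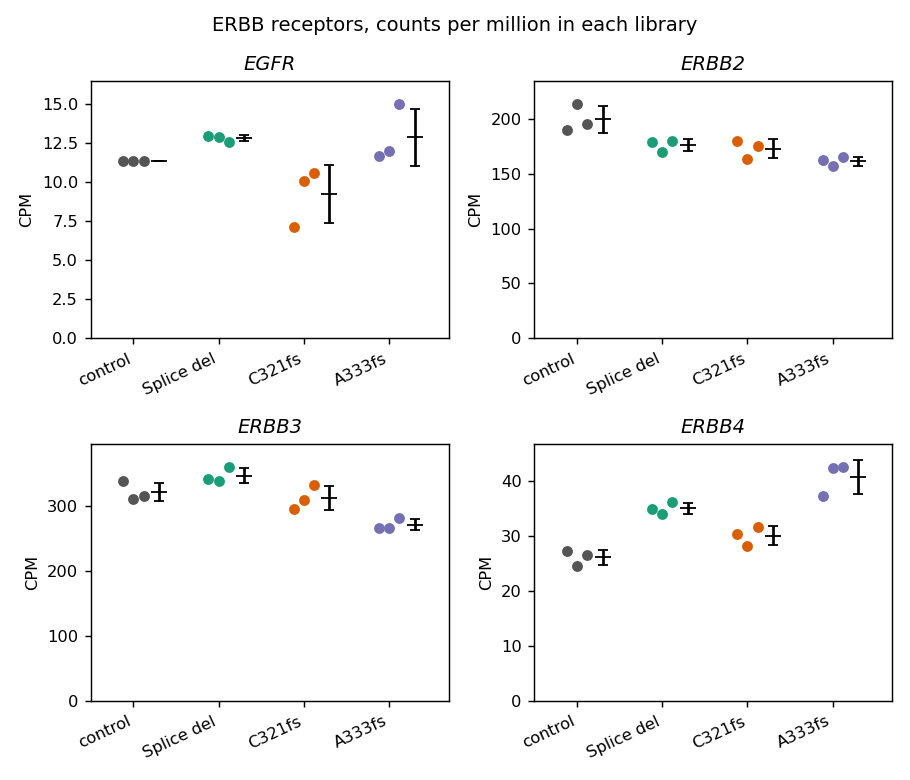
CPM in each of the 3 libraries of each line for the 4 receptors (points, with the mean and SD as bars; each y axis starts at 0). ERBB4 rises in steps from 24.6 to 27.3 CPM in control to 37.3 to 42.6 CPM in A333fs, ERBB2 is below control in all mutant libraries, and the first C321fs library is low for EGFR.

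The members differ in the GC content of their exons, and so does the pull of the trend noted above on each. EREG has 36.1% GC, lower than all but 2.1% of the tested genes, ERBB4 39%, with 9.2% of genes below it, and ERBB2 58.3%, with 77.3% below. The other members lie between 46% and 51.6%. With the trend on GC content and length removed from each library, EREG kept its calls, at log2 fold changes of 1.44, 2.06 and 2.36 in Splice del, C321fs and A333fs (adjusted p = 0.00543, 0.000167 and 2.71e-05, edgeR). AREG in C321fs had 0.78 (adjusted p = 3.32e-09) and stayed called, while its difference from control grew to -0.42 (1.32e-05) in A333fs and -0.16 (0.0264) in Splice del, still short of the fold limit. TGFA in C321fs came to 0.16 with an adjusted p of 0.0161, no longer below 0.01. ERBB4 came to 0.16, -0.01 and 0.41 in Splice del, C321fs and A333fs, where the last had an adjusted p of 0.000178 but no longer passed the fold limit. ERBB2 came to -0.05, -0.02 and -0.02, with adjusted p of 0.308 or more. BTC in C321fs had 1.21 with an adjusted p of 0.0111 and was no longer called. Whether the trend is technical was not tested, since all 3 control libraries share it.

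**Figure D5:**
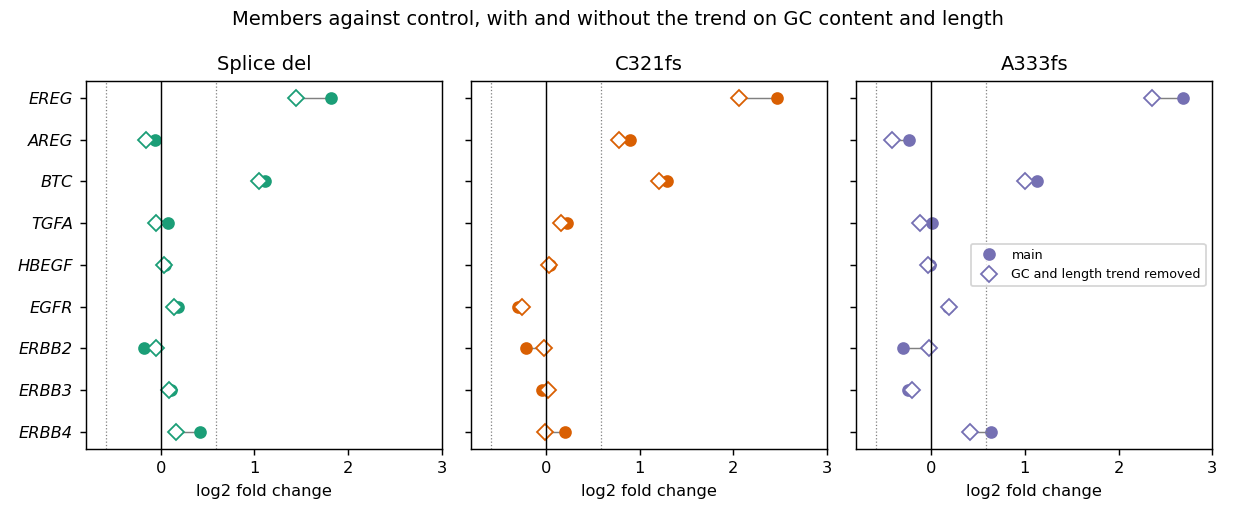
Log2 fold change against control (x axis) of the 9 members in each mutant line, in the main fit (filled circles) and without the trend on GC content and length of each library (open diamonds). Dotted lines mark a 1.5-fold change; EREG and AREG in C321fs stay beyond it, ERBB4 in A333fs moves inside it from 0.64 to 0.41, and ERBB2 moves to between -0.05 and -0.02.

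For each called member, the genes with the most similar pattern over the 12 libraries were taken among 12189 well-expressed genes, by Pearson correlation of log2 CPM, as a description. For AREG they were VEGFA (r = 0.974), with 28.1, 28.7, 46.9 and 22.2 CPM in control, Splice del, C321fs and A333fs, and CASC10 (r = 0.963). For EREG they were CHSY3 (0.966), at 0.895, 3.10, 3.66 and 4.67 CPM in the same order, and FAM104A (0.963). SPAST (0.961) and MTX3 (0.953) were closest to BTC, and SVIL (0.957) and UGCG (0.954) to ERBB4. UGCG had 217, 363, 267 and 452 CPM, the same order of lines as ERBB4. The libraries are shared by all pairs and fall into 4 lines, so each r mostly reflects the means of the lines.

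Other genes of the pathway were described by lists of 99 genes, of which 91 were tested. In Splice del cells 6 were called higher and 5 lower. The C321fs line had 5 called in each direction, and A333fs had 5 called higher and 17 lower. For comparison, Splice del had 6.21% of all tested genes called higher and 4.53% lower, C321fs 4.63% and 2.26%, and A333fs 5.46% and 6.81%. The median log2 fold change over the lists was -0.04, 0.01 and -0.06, beside 0.03, 0.02 and 0.01 over all tested genes. With the trend on GC content and length removed, the number called in A333fs was 9 and in Splice del 7. That fit also called fewer of all genes, 578 higher and 226 lower in A333fs and 688 and 358 in Splice del. In the main fit these were 808 and 1007, and 918 and 670.

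Of the other ligands, EGF itself had 4.96 ± 0.496 CPM in control and 8.96 ± 0.158, 7.38 ± 0.279 and 9.72 ± 0.874 CPM in Splice del, C321fs and A333fs (SD, n = 3). It was called higher in Splice del (log2 fold change 0.85, adjusted p = 3.85e-06) and A333fs (0.97, 9.11e-07), and in C321fs it had 0.57 (0.000245), just under the fold limit (edgeR), which it passed without the third control or the third C321fs library. With the GC trend removed EGF had 0.63, 0.40 and 0.73 in Splice del, C321fs and A333fs (adjusted p = 1.06e-05, 0.00197 and 2.73e-06, edgeR). It stayed called in Splice del and A333fs and lay further inside the fold limit in C321fs. NRG4, a ligand of ERBB4, had means of 2.30 to 2.97 CPM and no call, and NRG1 and NRG2, ligands of ERBB3 and ERBB4, and NRG3, a ligand of ERBB4, had at most 0.0533 CPM on average in any line.

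The list of shedding proteins held the ADAM proteases, the rhomboid protease RHBDL2, and TIMP3, an inhibitor of ADAM17. It also held the inactive rhomboids RHBDF1 and RHBDF2, which bring ADAM17 to the surface. ADAM17 and ADAM10, the main sheddases of the family, had log2 fold changes of 0.32 to 0.50 and 0.47 to 0.51, each with an adjusted p below the limit and none past the fold limit (edgeR). Of all genes 41.1%, 36.8% and 47.4% had such an adjusted p in Splice del, C321fs and A333fs. The exons of ADAM17 and ADAM10 have 43.7% and 39.9% GC, and their values with the GC trend removed are not given here. Both were named after their values were seen. TIMP3 was called higher in all 3 lines and had means of 0.0116 CPM in control and 0.946, 0.230 and 4.37 CPM in Splice del, C321fs and A333fs. It passed the filter on low counts only through mutant libraries, as did ADAM19. With 1 count in all control libraries together against 422 in A333fs, its ratio was 392 with an exact 95% interval of 69.9 to 15500, for counting error only. ADAM19 was called higher in Splice del (1.94, adjusted p = 0.00216) and C321fs (1.66, 0.0098), from a control mean of 0.133 CPM, and the call held in 9 and 3 of the 12 fits without 1 library. It was lost in Splice del without the first or the third control library or the second of Splice del, and held in C321fs only without the first Splice del library or the first or second of A333fs. RHBDF2 and ADAM15 were called lower in A333fs, at -0.76 and -0.59, and at -0.37 and -0.21 with the GC trend removed neither was called.

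Of the 18 inhibitors of the pathway, 4 were called lower in A333fs and 1 in Splice del, where 6.81% and 4.53% of all tested genes were. DUSP4, a phosphatase of MAP kinases, had 135 ± 1.5 CPM in control and 89.3 ± 2.80, 128 ± 1.19 and 54.1 ± 0.879 CPM in Splice del, C321fs and A333fs. Its log2 fold change was -0.59 (adjusted p = 1.22e-07) in Splice del and -1.32 (1.42e-11) in A333fs by edgeR. SPRY4, a Sprouty inhibitor of RAS signalling, was called lower in A333fs (-0.69, adjusted p = 9.37e-06), where it differed from C321fs by -0.71 (adjusted p = 1.95e-05). CBLC (-0.82), a ubiquitin ligase, and DUSP5 (-0.59), a phosphatase of ERK, were the others, and both dropped out with the GC trend removed, at -0.41 and -0.39.

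Among 12 genes for partners and trafficking of the receptors, of which 11 were tested, CD9 was called higher in Splice del (0.62), EPS15L1 lower in Splice del (-0.63) and A333fs (-0.69), HGS lower in A333fs (-0.62), and MUC1 lower in C321fs (-0.95) and A333fs (-0.71). With the GC trend removed, EPS15L1 in Splice del and MUC1 in C321fs were still called. CD9 in Splice del (0.52, adjusted p = 3.74e-08) and EPS15L1 in A333fs (-0.57, 3.57e-09) then lay just inside the fold limit, and in A333fs HGS had -0.20 and MUC1 -0.43 (edgeR). CD9 is a tetraspanin that associates with the HBEGF precursor, MUC1 encodes a mucin that binds ERBB receptors, and EPS15L1 and HGS act in endocytosis and sorting. Of 38 tested transduction genes, 2 were called higher and 4 lower in A333fs, where 5.46% and 6.81% of all genes were, and 1 was called higher in Splice del, beside 6.21%. PIK3R3, a regulatory subunit of PI3 kinase, was higher in A333fs (0.71, adjusted p = 9.1e-08, edgeR), while PIK3R2 (-0.67), ARAF (-0.61), AKT1 (-0.60) and ELK1 (-0.61) were lower there and lost the call with the GC trend removed, at -0.23, -0.52, -0.24 and -0.35. The remaining called gene, named after its values were seen, was the transcription factor STAT5A, at 1.05 in Splice del and 1.06 in A333fs, from a control mean of 1.44 CPM. Both calls were lost without the first control library, and that in Splice del also without the third Splice del library.

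Of 12 tested output genes of the cascade, 4 were called lower in A333fs, 3 lower in Splice del, and in C321fs 2 were higher and 4 lower. Of all tested genes 6.81% were called lower in A333fs and 4.53% in Splice del, and in C321fs 4.63% were called higher and 2.26% lower. MYC, a growth-promoting transcription factor, had 128 ± 8.30 CPM in control and 63.1 ± 2.20, 81.5 ± 1.26 and 67.7 ± 0.694 CPM in Splice del, C321fs and A333fs (SD, n = 3), and was called lower in all 3 lines (adjusted p = 2.13e-09, 6.47e-07 and 4.6e-09, edgeR). IER3, an immediate early gene, was called lower in all 3 lines as well, at -0.61, -0.65 and -0.60, and JUN, a subunit of AP-1, in Splice del (-0.60) and C321fs (-0.61). For IER3 and JUN the calls lay near the fold limit. With the GC trend removed they moved inside it, JUN to -0.50 in both Splice del and C321fs (adjusted p = 3.02e-08 and 1.11e-07) and IER3 to -0.50, -0.45 and -0.34 in Splice del, C321fs and A333fs (4.15e-06, 2.24e-05 and 0.000426, edgeR). Several calls near this limit turned on 1 library. Without the second control or the second A333fs library, ADAM15, HGS, ARAF, AKT1, ELK1 and IER3 were not called in A333fs, and DUSP5 there was lost without the first control library or the first or second of A333fs. In Splice del the calls of EPS15L1 and IER3 were lost without the second control library, CD9 without the third, DUSP4 without the second and JUN without the first Splice del library, and in C321fs that of IER3 without the third C321fs library.

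ETV4 and PHLDA1 had opposite signs in C321fs and A333fs. ETV4, an ETS factor of the PEA3 group, had 2.02 ± 0.369 CPM in control and 1.85 ± 0.0586, 4.50 ± 1.18 and 0.884 ± 0.174 CPM in Splice del, C321fs and A333fs. It was called higher in C321fs (1.16, adjusted p = 0.000154) and lower in A333fs (-1.19, 0.000586), and the direct difference was -2.35 (SE 0.22, adjusted p = 7.77e-07, edgeR). PHLDA1, a gene induced by growth factors, was called lower in C321fs (-0.87, adjusted p = 5.08e-08), and in A333fs it had 0.47 (3.27e-06), short of the fold limit. The direct difference between A333fs and C321fs was 1.34 (SE 0.06, adjusted p = 7.75e-11, edgeR). With the GC trend removed PHLDA1 had -1.05 in C321fs, still called, and only 0.22 in A333fs (adjusted p = 3.78e-10 and 0.00751, edgeR). The other called output genes, named after their values were seen, were ETV1, a further factor of the PEA3 group, in C321fs (0.79) and EGR1, an immediate early gene, in A333fs (-0.73). With the GC trend removed they had 0.53 and -0.55 and were not called, and the EGR1 call held in only 5 of the 12 fits without 1 library, being lost without the first or second control library, any A333fs library, or the second of Splice del or C321fs.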

How the data were processed

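RNA-seq counts of the 12 libraries were analysed. The ChIP-seq samples were not used here. Per the study's methods the authors used Trimmomatic before alignment to hg38, and fragments per gene were counted with featureCounts (version 1.6.4 in the file header, paired, without strand). Their processing notes name HISAT2, while the header's folder names STAR. The deposited values are raw counts, with gene lengths beside them. The growth medium in the labels differs from that in the methods.

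Genes were kept by filterByExpr, scaled by TMM and fitted with edgeR 4.0.16 (R 4.3.3), 1 coefficient per line, all 12 libraries sharing the spread, with quasi-likelihood tests and Benjamini-Hochberg adjustment over 14789 genes. Thresholds were an adjusted p of 0.01 and a fold change of 1.5. The common dispersion was 0.00453. On simulated counts for A333fs against control, 83.5% of 200 genes changed 2-fold were called and 0 of the unchanged genes. The simulated libraries varied independently with the fitted spread and held no trend on GC content and no difference between pools. The result therefore does not bear on calls that arise from such a trend or from the pools.

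RPKM used the deposited lengths. The trend on GC content and length was fitted by loess with a span of 0.3. Intervals on ratios of summed counts are exact binomial intervals. The level below which a gene counts as at the floor was 3 counts in every library of a line.

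The members and lists were chosen with earlier results of these data known. Genes named are all members, up to 5 called genes of each list by the F-test among lines, the tested neighbours within 1 Mb, and the 2 most similar genes for each called member. ADAM10, ADAM17, NRG1 to NRG4, STAT5A, ETV1 and EGR1 were named after their values were seen.

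Alternatives were other scaling (RLE, upper quartile, none), other filters, a test against the fold limit, DESeq2 1.42.0, 2 lines at a time, a replicate block, other thresholds and leaving out each library, 25 settings in all.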

Additional observations from a re-analysis of the deposited data

Results flagged for a closer look

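Differences between mutant lines in the response of a member, against the same control, were taken for a closer look where edgeR's quasi-likelihood test of the difference itself passed an adjusted p of 0.01. AREG differed by -0.96 on the log2 scale between Splice del and C321fs and by -1.14 between A333fs and C321fs, with all 3 libraries of each lower line below all 3 of C321fs. Between A333fs and C321fs, TGFA differed by -0.22, EGFR by 0.48 and ERBB4 by 0.44. ERBB3 differed by -0.35 between A333fs and Splice del. Only the differences of AREG also passed the fold limit.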

How the results depend on the processing

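EREG kept its call in all 3 lines under each setting that tested it except the test against the fold limit, which left it uncalled in Splice del. AREG kept its call in C321fs, and its differences from both other mutant lines, under all 25 settings. BTC and ERBB4 were less stable.

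Against control, the number of members called in Splice del was 2 with upper-quartile scaling, with the 2 lines alone, at an adjusted p below 0.05 and with no fold limit, 3 without scaling factors, and 0 with at least 10 counts in every library, which drops EREG and BTC, or with the test against a fold change of 1.5. In C321fs it was 1 with at least 10 counts and 5 with no fold limit. In A333fs the number called was 1 with at least 10 counts and with the test against the fold limit. It was also 1 after removal of the trend on GC and length, with or without the replicate block, and 5 with no fold limit. It was 3, with BTC, with upper-quartile scaling, without factors, with no filter, with the 2 lines alone and at an adjusted p below 0.05. Without the third control or the third Splice del library it was 3 in A333fs and 2 in Splice del, again with BTC. Between A333fs and C321fs the number called was 4 with no fold limit and 2 without the third C321fs library. Between A333fs and Splice del it was 1 at an adjusted p below 0.05 and 1 with no fold limit. Without scaling factors the median of all genes shifted by 0.219, 0.187 and 0.155 in Splice del, C321fs and A333fs. In that setting 2025, 1518 and 1544 of all genes were called higher in these lines, against 918, 684 and 808 in the main fit. With upper-quartile scaling these were 1321, 1024 and 1329.

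Of the pathway genes, 17 were called in Splice del without scaling factors, and 7 with at least 10 counts or with the GC trend removed. Of all genes, 918 were called higher and 670 lower in the main fit of Splice del, and 2025 and 171 without factors. With at least 10 counts these were 850 and 586, and with the GC trend removed 688 and 358. In A333fs 9 pathway genes were called with the GC trend removed. Of all genes, 578 were then called higher and 226 lower in A333fs, against 808 and 1007 in the main fit. The test against a fold change of 1.5 left 2, 2 and 5 pathway genes in Splice del, C321fs and A333fs, and no fold limit gave 53, 49 and 65. Of all genes, that test called 213, 80 and 234 higher and 63, 30 and 119 lower. With no fold limit 41.1%, 36.8% and 47.4% of all genes passed. Leaving out 1 library gave 14 to 24 pathway genes in A333fs, the lowest without the second A333fs library and the highest without the third of control. Of all genes, these fits called 810 higher and 758 lower, and 850 and 1029.

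Signs turned only for values that had not been called. Over the fits that each left out 1 library, TGFA in A333fs ran from -0.02 to 0.05, and HBEGF from -0.07 to 0.20, -0.09 to 0.18 and -0.13 to 0.14 in Splice del, C321fs and A333fs. AREG in Splice del came to 0.03 with upper-quartile scaling and 0.13 without factors, ERBB3 in C321fs to 0.04 and 0.12, and ERBB2 in Splice del to 0.01 without factors. With the GC trend removed, with or without the block, TGFA came to -0.05 in Splice del and -0.12 in A333fs, ERBB3 in C321fs to 0.02, ERBB4 in C321fs to -0.01 and ERBB2 between A333fs and Splice del to 0.03. HBEGF in A333fs came to 0 with RLE scaling, the block and DESeq2, 0.01 with the 2 lines alone or at least 10 counts, 0.02 with no filter, 0.11 with upper-quartile scaling and 0.14 without factors.

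Same-numbered libraries of different lines did not deviate together (18 pairs, mean r -0.00915, from -0.123 to 0.165), so the numbers were not taken as pairs. With the replicate block 2 members were called in C321fs, where BTC was lost, and the counts of members in the other comparisons were equal. EREG, EPGN and BTC rest on at most 52 counts a library, which limits their precision.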
